A study of Rattus norvegicus with 32 samples.

Results

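mTOR, mechanistic target of rapamycin, is a kinase that joins signals of growth factors, nutrients and energy to protein synthesis and autophagy, and in the hippocampus its signaling is known for its part in dendrite growth and in late phases of synaptic plasticity. In complex 1 (mTORC1) the kinase is held by the scaffold raptor (Rptor) and switched on by the small GTPase Rheb, which the TSC complex (Tsc1, Tsc2) keeps in its inactive form, while Ddit4, also called REDD1, acts through the TSC complex to lower mTORC1 activity under hypoxia, energy stress or glucocorticoid. Downstream, mTORC1 phosphorylates the S6 kinase (Rps6kb1) and the eIF4E inhibitor 4E-BP1 (Eif4ebp1), and the S6 kinase restrains the eEF2 kinase (Eef2k), which slows peptide chain elongation by phosphorylating eEF2.

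These 9 genes were followed across the 4 diet groups of each sex. They were found by their symbols in both deposited count tables, with 1 entry each among 32883 entries, and all 9 passed the filter on low counts in every comparison. Ddit4 and Eef2k were chosen by their fold changes between diet groups in these libraries, and which comparison was decisive is not recorded, so all of them are counted as used. Their levels and fold changes are therefore given as a description without a test, while the 7 other genes carry the test of the fit across all genes. These 7 genes and the gene lists used below were also chosen with earlier results of these data known. Their p-values do not take that choice into account.

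Hippocampal RNA was sequenced from 32 Sprague-Dawley rats at P65, the 16 males in sequencing batch I, the 16 females in II; sex and batch cannot be told apart, and groups were compared within a sex. The groups of 4 rats were always iron-sufficient (IS, control), iron-sufficient with choline (ISch), formerly iron-deficient (FID) and formerly iron-deficient with choline (FIDch). For the males, the maternal diet held 200 mg/kg iron in the iron-sufficient and 4 mg/kg in the iron-deficient litters, the latter from G2 to P7 with iron repletion afterwards, and choline was 5 g/kg from G11 to G18 in the supplemented and 1.1 g/kg in the other dams. A single male was used per litter. In the males the iron deficiency was thus dietary and maternal, which makes their FID and FIDch groups a model of early-life deficiency in adults that had been repleted. The females' labels name the same 4 diets without their contents or litters, and their groups are named here like those of the males.

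Libraries held 3515806 to 9517503 counts in the males and 18439999 to 26616318 in the females. Markers of excitatory neurons and of the hippocampal fields were detected in every group, with none of their entries at 0 in all libraries. Choroid plexus markers (8 genes, none at 0 in all libraries) summed to 425 CPM (counts scaled to the library total) in male FID replicate 4. FID replicates 1, 2 and 3 had 9.78, 20.9 and 7.53 CPM, and the IS, ISch and FIDch males 3.41 to 7.48 CPM. Every FID male thus lay above every male of the other groups. The shallowest library, male FIDch replicate 2, is also among the 3 male libraries whose names have another form than the rest, with ISch replicates 1 and 2. In females, FIDch replicate 4 stood apart: its counts differed from those of the other 3 rats of its group by a chi-square of 22.4 to 25.2 per gene, beside 5.35 to 6.87 among those 3. It had the lowest Tsc1, Tsc2, Mtor, Rptor, Rps6kb1 and Eef2k and the highest Ddit4, Rheb and Eif4ebp1 of its group. Female ISch replicate 1 differed from its group by 11 to 14.3, beside 5.18 to 6.68 among the others. In males, IS replicate 1 differed by 6.25 to 11, beside 2.56 to 4. FID replicate 2 differed by 7.02 to 7.97, beside 2.63 to 3.38. This FID male had the lowest Tsc1, Tsc2, Mtor and Eef2k and the highest Rheb and Eif4ebp1 of its group. In bulk tissue, fewer cells of a type and less RNA per cell cannot be told apart.

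Ddit4, the stress-induced inhibitor of mTORC1, had its largest difference between diets in the females. Normalized counts (scaled by TMM to the median library of the sex) were 1548, 1298, 1318 and 1528 in the 4 female IS rats and 936.2, 983, 1108 and 955.7 in the 4 female FID rats. Every FID female was below every IS female (6.56% of all genes tested had groups that did not overlap in this comparison), and the FID mean was 70% of the IS mean. Female ISch rats had 1191, 1550, 1632 and 1362, which lies around the IS values. Female FIDch rats spread most, with 1181, 841.4, 1050 and 1492, so that 1 rat was below all FID rats and another lay among the IS rats. The log2 fold change of Ddit4 in females was -0.52 ± 0.072 (SE) for FID against IS, 0.01 ± 0.096 for ISch against IS, -0.32 ± 0.15 for FIDch against IS, 0.20 ± 0.14 for FIDch against FID and -0.33 ± 0.16 for FIDch against ISch. Without FIDch replicate 4 the last 3 were -0.48, 0.04 and -0.49, and without FIDch replicate 2 they were -0.19, 0.32 and -0.20.

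In the males the order of the group means was different. Ddit4 was 386.7, 421.4, 278.2 and 419.2 in male IS rats and 339.3, 339.5, 352.2 and 287.3 in male FID rats. The IS and FID values overlapped, since the lowest of all 8 was an IS rat. Male ISch rats had 326, 362.7, 381.3 and 386.3, and male FIDch rats had 490.9, 512.6, 385.7 and 350.7. The FIDch group was the highest of the 4 on average, at 116% of the IS mean, while its lowest rat still lay below the highest FID rat. On the log2 scale the male differences were -0.20 ± 0.12 (SE) for FID against IS, -0.05 ± 0.12 for ISch against IS, 0.20 ± 0.14 for FIDch against IS, 0.38 ± 0.12 for FIDch against FID and 0.24 ± 0.11 for FIDch against ISch. IS and ISch, neighbours in the order of male means, did not differ beyond their spread (SD 67.3 and 27.3, n = 4). The next neighbours, ISch and FID, had means of 364.1 and 329.6 (SD 27.3 and 28.8, n = 4), and their rats overlapped. Without male FID replicate 4, FID against IS was -0.13, and without the 3 libraries with names of another form FIDch against ISch was 0.10 in place of 0.24.

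Eef2k, the kinase of elongation factor 2, varied with diet in the males and little in the females. Normalized counts in males were 309.9, 335.3, 414.3 and 342.7 in IS, 351.2, 370.3, 288 and 314.8 in ISch, 296.4, 253.8, 291.9 and 310.4 in FID, and 400.8, 340.2, 326.6 and 373.3 in FIDch rats. Every FIDch male was above every FID male (10.6% of all genes did not overlap), and the highest FID male reached the lowest IS male. The FID mean was 82.2% and the FIDch mean 103% of the IS mean. The log2 fold change was -0.29 ± 0.10 (SE) for FID against IS, 0.32 ± 0.089 for FIDch against FID and 0.05 ± 0.10 for FIDch against IS, and ISch stood at -0.09 ± 0.11 against IS. Without FID replicate 4, FID against IS was -0.32 and FIDch against FID 0.36. With each library left out in turn, FID against IS ran from -0.34 to -0.19 and FIDch against FID from 0.27 to 0.38. Without the 3 libraries with names of another form, FIDch against ISch was 0.28 in place of 0.13.

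In females, Eef2k was 798, 704.8, 778.6 and 786.1 in IS, 759.1, 694.9, 768.5 and 717.6 in ISch, 770.3, 768.3, 833.9 and 672 in FID, and 845, 777.9, 812.4 and 652.6 in FIDch rats. All 4 groups overlapped, and the 5 log2 fold changes lay between -0.06 and 0.07 with SEs of 0.057 to 0.086. Group means ran from 735 in ISch to 772 in FIDch, and no neighbours in that order differed beyond their spread (SD 34.7 to 84.2). Eef2, the elongation factor that this kinase phosphorylates, had log2 fold changes between -0.09 and 0.08 in the 10 comparisons of both sexes, and none of them met the criterion below.

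**Figure D1:**
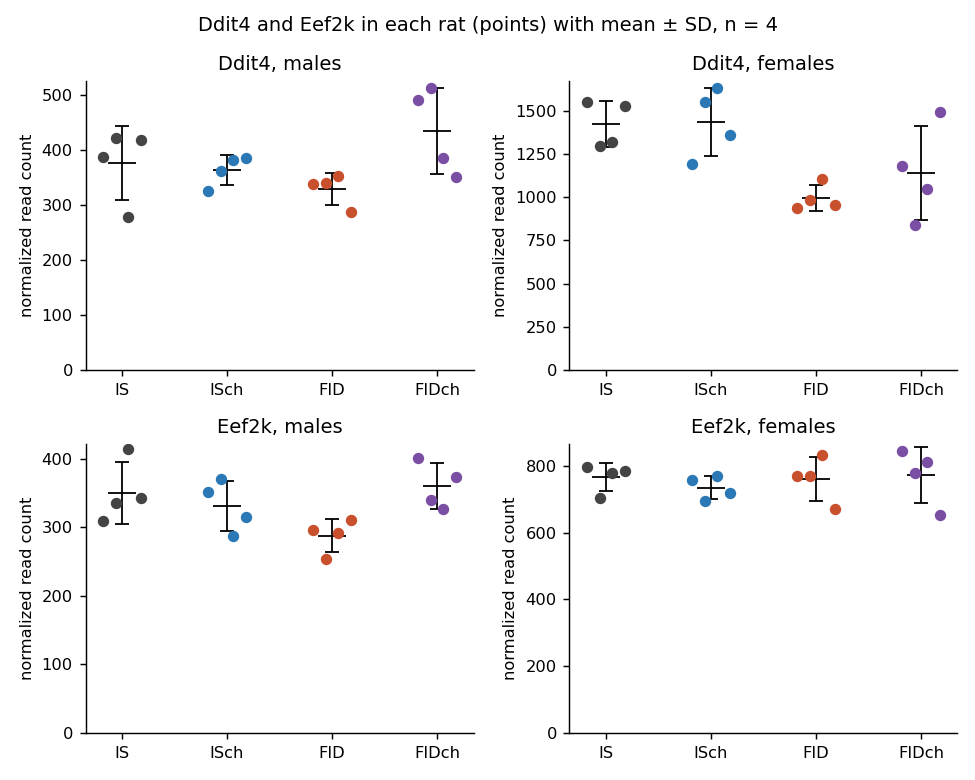
Normalized read counts of Ddit4 and Eef2k (y axes, from 0) in each rat of the 4 diet groups (x axes), males left and females right; points are rats, bars mean ± SD of 4. The 4 female FID rats lie between 936.2 and 1108 for Ddit4, below all female IS rats, and the 4 male FIDch rats lie between 326.6 and 400.8 for Eef2k, above all male FID rats.

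Effects of choline in the 2 iron backgrounds were set side by side. In males, the choline effect in formerly iron-deficient rats minus that in iron-sufficient rats was 0.44 ± 0.18 (SE) for Ddit4 and 0.42 ± 0.14 for Eef2k on the log2 scale, and 0.29 and 0.56 without the 3 libraries with names of another form. In females the same difference was 0.19 ± 0.19 for Ddit4 and 0.09 ± 0.11 for Eef2k, and 0.03 and 0.15 without FIDch replicate 4. Between the sexes, male minus female, FID against IS differed by 0.34 ± 0.15 for Ddit4 and by -0.26 ± 0.12 for Eef2k, and FIDch against FID by 0.20 ± 0.20 for Ddit4 and 0.32 ± 0.13 for Eef2k.

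The promoters of Ddit4 and Eef2k are shown because these are the 2 members singled out and both had a positive fold change in male FIDch against FID. Each run is the 250 bases before the RefSeq start, on the gene's strand, with capitals for the hypoxia response core ACGTG or, in Eef2k, for the E-box CACGTG that contains it. The Ddit4 window is chr20:28437038-28437287 on the minus strand and the Eef2k window chr1:184824170-184824419 on the plus strand of GRCr8, a later build than the one the counts were made on.
Ddit4: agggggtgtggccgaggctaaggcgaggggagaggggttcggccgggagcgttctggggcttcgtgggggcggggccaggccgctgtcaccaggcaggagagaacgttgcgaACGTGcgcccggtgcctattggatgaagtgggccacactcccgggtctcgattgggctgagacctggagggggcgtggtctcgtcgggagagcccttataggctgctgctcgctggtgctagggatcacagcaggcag
Eef2k: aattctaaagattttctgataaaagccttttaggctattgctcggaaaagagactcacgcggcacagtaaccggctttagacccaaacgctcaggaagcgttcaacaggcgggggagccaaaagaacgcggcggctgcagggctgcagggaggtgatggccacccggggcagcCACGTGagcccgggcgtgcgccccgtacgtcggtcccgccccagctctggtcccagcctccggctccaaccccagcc
ACGTG, searched on both strands, occurred 1 time in the Ddit4 window and 2 times in the Eef2k window, where both matches are the 2 strands of the same CACGTG, and CACGTG was not found in the Ddit4 window. Of 33469 rat promoter windows of this length, 16.6% held ACGTG and 5.59% held CACGTG. Among the 7 members with a promoter sequence, Tsc2 (1 match) and Rheb (2 matches) also held ACGTG, and Tsc1, Mtor and Rps6kb1 did not. The GC content of the windows was 67.6% for Ddit4 and 62% for Eef2k against a median of 51.2% over all windows. A match is a string of letters here, and binding was not measured.

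The 7 other members, from the TSC complex to the S6 kinase and 4E-BP1, differed little between diets. The criterion used by the study (log2 fold change beyond 0.2 in either direction, unadjusted p under 0.05) was met in 1 of 70 combinations of gene and comparison (edgeR's quasi-likelihood test), and 63 of the 70 log2 fold changes were at or under 0.2. An unadjusted p under 0.05 was reached in 6 of 70 and an adjusted p under 0.05 (Benjamini-Hochberg over all genes) in 0, while DESeq2 gave 5 and 1. Over all genes tested, the share at the criterion was 4.62% in male FID against IS, 8.06% in male ISch against IS, 6.12% in male FIDch against IS, 13% in male FIDch against FID and 8.12% in male FIDch against ISch. The corresponding shares in females were 6.47%, 10.3%, 8.98%, 12.7% and 4.57%. An adjusted p under 0.05 was reached, in the same order, by 0%, 0.208%, 0.131%, 1.28% and 0.043% of all genes in males and by 0.191%, 2.54%, 0.907%, 2.28% and 0.00689% in females.

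Eif4ebp1, whose protein holds back cap-dependent initiation until mTORC1 phosphorylates it, was the gene at the criterion. Female IS rats had 111, 88.31, 110 and 78.33 normalized counts and female ISch rats 119.3, 149.6, 140.8 and 167.6. Every ISch female was above every IS female (10.1% of all genes tested had groups that did not overlap in this comparison). The log2 fold change was 0.58 ± 0.15 (SE), with an adjusted p of 0.0776 by edgeR. Over 15 other settings the adjusted p was 0.0241 to 0.242, under 0.05 by DESeq2 (0.0241) and without ISch replicate 1, and the log2 fold change 0.49 to 0.66. With choline in formerly iron-deficient females the values overlapped, 130.9, 95.16, 103 and 159.1 in FIDch against 93.8, 106.8, 85.14 and 105.6 in FID. In males Eif4ebp1 was low, with 17.91 to 55.67 normalized counts in all 16 rats, and ISch (31.2 ± 3.81) and IS (33.2 ± 6.25) means (SD, n = 4) overlapped. The male effect of ISch against IS minus the female effect was -0.68 ± 0.24 (adjusted p = 0.186, edgeR).

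Tsc2, the GTPase-activating subunit of the TSC complex, had fold changes of opposite sign with choline in FID rats of the 2 sexes. Normalized counts in males were 1538, 1313, 1500 and 1572 in FID and 1753, 1690, 1563 and 1815 in FIDch rats. In females they were 3959, 4178, 4362 and 4173 in FID and 3659, 3705, 4053 and 3278 in FIDch rats. The FIDch rats were mostly above FID in males and mostly below in females, with 1 FIDch rat of each sex inside the FID range. The log2 fold change of FIDch against FID was 0.20 ± 0.07 (SE) in males (adjusted p = 0.172, edgeR) and -0.18 ± 0.061 in females (adjusted p = 0.148). Neither met the criterion in these fits, but the male value lay at its limit and met it in 11 of 16 other settings, between 0.15 and 0.25, with an adjusted p of 0.0934 to 0.369. The female value was -0.13 without FIDch replicate 4.

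The difference between these sex-specific effects was 0.40 ± 0.096 (adjusted p = 0.033, edgeR), the only one of 49 differences between sexes or iron backgrounds in these 7 genes with an adjusted p under 0.05; 17.7% of all genes tested met the criterion in that difference and 2.88% had an adjusted p under 0.05. In the other differences between sexes an adjusted p under 0.05 was reached by 0.0396% (FID against IS), 1.28% (ISch against IS), 0.362% (FIDch against IS) and 0.00661% (FIDch against ISch) of all genes, and in the differences between iron backgrounds by 0.00668% in females and 0.00699% in males. When each of the 16 libraries was left out in turn the difference stayed between 0.35 and 0.45, and the adjusted p was 0.05 or more in 9 of the 16 cases, 0.0793 at most, without female FID replicate 3; the others were male FID replicates 2 and 4, male FIDch replicates 1 and 4, female FID replicates 2 and 4, and female FIDch replicates 1 and 2. In males, the choline effect on Tsc2 in FID minus that in IS was 0.27 ± 0.088 (adjusted p = 0.195, edgeR), where 14.4% of all genes met the criterion. In male FID rats Tsc2 was also below all IS rats (1645, 1591, 1679 and 1623), as was so, in either direction, for 3.6% of all genes tested, with a log2 fold change of -0.15 ± 0.067 (adjusted p = 0.786, edgeR). In RefSeq, Tsc2 overlaps Pkd1, Eef2k overlaps LOC102556194, Mtor overlaps Angptl7 and LOC120103237, and Rps6kb1 overlaps Rnft1. A strand setting of the counting is not given in the sources used here, so these 4 members are uncertain to the extent of the overlaps.

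Tsc1, the partner that stabilizes Tsc2, had 311.9 to 485.3 normalized counts in males and 710.7 to 1196 in females, and no comparison reached an unadjusted p under 0.05. Rheb, the activator of mTORC1, ranged from 519.3 to 716.5 in males and 1450 to 1791 in females. Its smallest p was in male FIDch against ISch, with 544.5, 519.3, 600.2 and 526.1 in FIDch and 610.4, 584, 657.3 and 586.6 in ISch rats. These values overlapped, and the log2 fold change was -0.15 ± 0.064 (adjusted p = 0.337, edgeR).

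Mtor, the kinase itself, stayed within 994.7 to 1231 normalized counts in males and 2746 to 3699 in females, and its groups overlapped in every comparison. Rptor, the scaffold of mTORC1, had 2012, 2082, 1983 and 1954 in female IS and 2172, 2248, 2167 and 2131 in female FID rats. Every FID female was above every IS female (6.56% of all genes tested did not overlap), and the log2 fold change was 0.12 ± 0.039 (adjusted p = 0.287, edgeR). Female FIDch rats, at 2106, 2077, 2056 and 1754, were all below the FID rats, where 11.9% of all genes did not overlap. The choline effect on Rptor in FID females minus that in IS females was -0.21 ± 0.076 (adjusted p = 0.423, edgeR), where 7.33% of all genes met the criterion, and -0.16 without FIDch replicate 4. In males Rptor lay between 670.7 and 759.9 in all 16 rats.

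Rps6kb1, the S6 kinase that carries the mTORC1 signal to the ribosome and to Eef2k, had 265.1 to 371.9 normalized counts in males and 573.6 to 743.7 in females. In no comparison did it reach an unadjusted p under 0.05. Male FIDch rats had 274.3, 302.2, 289.5 and 285.6 against 300.8, 300.8, 313.6 and 371.9 in FID rats, and female FIDch rats had 721.1, 743.7, 726 and 634.2 against 681, 661.5, 619.3 and 573.6. The means of FIDch lay below FID in males and above FID in females, and male minus female was -0.31 ± 0.11 (adjusted p = 0.129, edgeR).

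**Figure D2:**
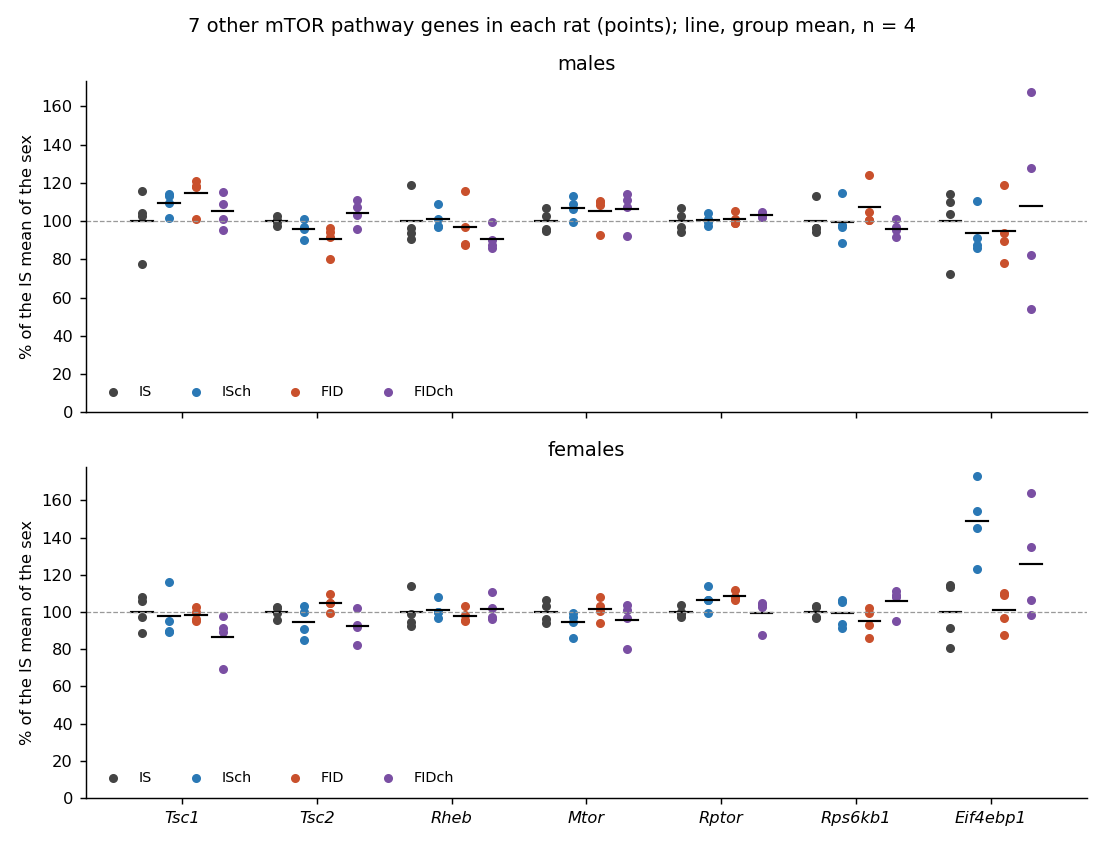
Normalized counts of the 7 other genes as a percentage of the IS mean of the same sex (y axis, from 0), males above and females below; points are rats of the 4 diet groups, short lines group means of 4. Most rats lie near 100%, apart from Eif4ebp1, whose female ISch rats are all above the IS rats at a mean of 149%.

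**Figure D3:**
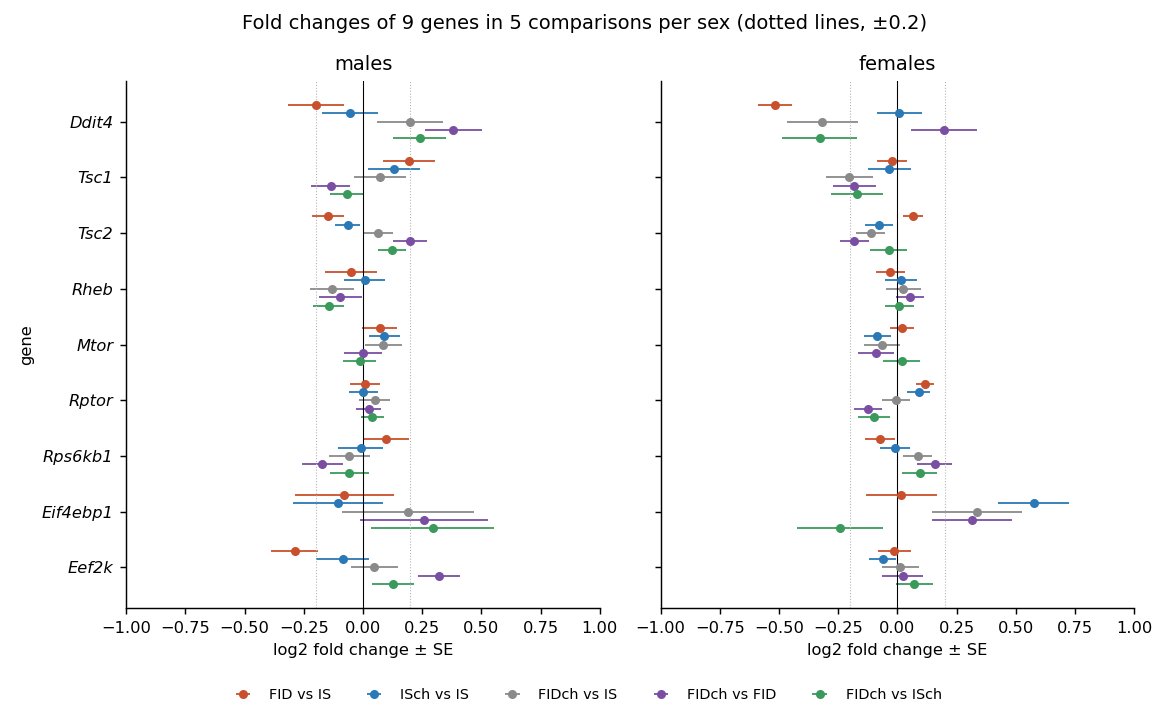
Log2 fold changes ± SE (x axis) of the 9 genes (y axis) in 5 comparisons of diet groups, males left and females right, with 4 rats per group. Ddit4 in female FID against IS (-0.52) and Eif4ebp1 in female ISch against IS (0.58) lie farthest from 0, and Eef2k in males lies at -0.29 for FID against IS and 0.32 for FIDch against FID.

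The wider pathway was read from 92 other genes in 7 lists: complex subunits, insulin and PI3K inputs, AMPK and TSC regulators, amino acid sensing, translation outputs, autophagy outputs and calmodulins. Of these, 88 are in the tables, and 87 or 88 were tested per comparison. At the criterion were 2 of 88 (2.27%) in male FID against IS, 6 of 87 (6.9%) in male ISch against IS, 1 of 87 (1.15%) in male FIDch against IS, 7 of 87 (8.05%) in male FIDch against FID and 6 of 87 (6.9%) in male FIDch against ISch. In females these were 6 (6.82%), 5 (5.68%), 8 (9.09%), 7 (7.95%) and 4 (4.55%) of 88. In the difference of choline effects between the iron backgrounds, 18 of 88 (20.5%) were at the criterion in males beside 14.4% of all genes, and 2 of 88 (2.27%) in females beside 7.33%. Medians of the list were between -0.02 and 0.02 on the log2 scale in the 10 comparisons, beside -0.01 to 0.01 over all genes. The male counts for FID against IS rested on few genes and were 1 to 7 when a library was left out, the lowest without FID replicate 1 and the highest without IS replicate 3.

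**Figure D4:**
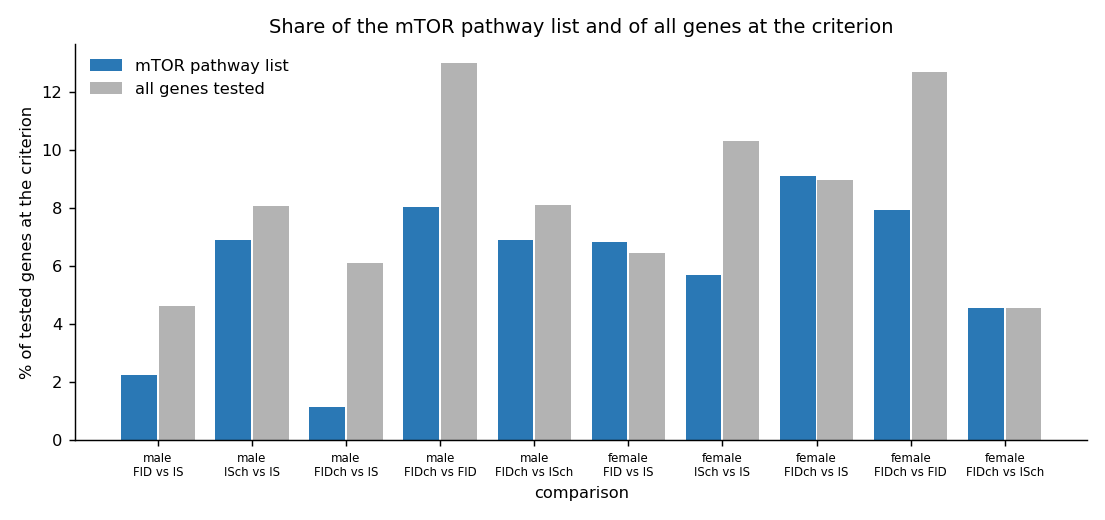
Percentage of tested genes at the criterion (y axis, from 0) in the list of 87 or 88 pathway genes and in all genes, for 5 comparisons in each sex (x axis). The list is at 8.05% beside 13% of all genes in male FIDch against FID and about level in female FIDch against ISch (4.55% and 4.57%).

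Ddit4l, the paralog of Ddit4 that also inhibits mTORC1 and is known from muscle, had a fold change of the opposite sign to that of Ddit4 in FID females. Normalized counts were 111, 117.5, 107.1 and 114.7 in IS, 175.9, 123, 159.8 and 191.5 in FID, 169.2, 130.3, 122 and 147.9 in ISch, and 165, 234.6, 150.1 and 190.7 in FIDch females. All 12 rats of the other groups were above all IS rats. Of all genes tested, 6.56% did not overlap in FID, 10.1% in ISch and 7.83% in FIDch against IS. The log2 fold change was 0.53 ± 0.13 (SE, adjusted p = 0.142, edgeR) for FID, 0.34 ± 0.12 (0.202) for ISch and 0.72 ± 0.14 (0.0452) for FIDch against IS. In males the level was low, 17.91 to 59.66, and FIDch was lower than FID by -0.62 ± 0.26 (adjusted p = 0.24). Male minus female in FIDch against IS was -1.19 ± 0.28 (adjusted p = 0.0741).

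In FIDch males compared to FID males, 6 pathway genes were lower and 1 was higher at the criterion, beside 7.24% and 5.74% of all genes. Rb1cc1, a scaffold of the autophagy-initiating ULK complex, was 1149, 1230, 1153 and 1178 in FID and 920, 1050, 995.6 and 940.8 in FIDch males. These did not overlap, as for 10.6% of all genes tested. Rb1cc1 was at -0.28 ± 0.059 (SE, adjusted p = 0.0426, edgeR), and Pdpk1, the kinase upstream of Akt and S6 kinase, was -0.30 ± 0.085 (adjusted p = 0.0992). Prkaa1, a catalytic AMPK subunit, was lower in FIDch compared to ISch males, at -0.42 ± 0.08 (adjusted p = 0.106). In the same comparison Rictor, the scaffold of mTORC2, was -0.30 ± 0.12 (adjusted p = 0.31) and Prr5, its partner, 0.38 ± 0.13 (adjusted p = 0.227). Lamtor4, a Ragulator subunit, was at the criterion in male FID against IS (-0.28 ± 0.11, adjusted p = 0.786). In male ISch against IS, Tti2 (-0.37 ± 0.12), Prr5 (-0.34 ± 0.15) and Insr (0.25 ± 0.081) had the largest changes at the criterion. Their adjusted p-values were 0.384, 0.465 and 0.371. In male FIDch against IS only Prr5l (-0.60 ± 0.20, adjusted p = 0.452) met the criterion.

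Tti2, a chaperone partner in the assembly of mTOR and related kinases, was 242.1, 274.4, 273.5 and 249 in IS and 383.9, 406.6, 316.8 and 425.1 in ISch females. These did not overlap, as for 10.1% of all genes tested. Tti2 had a log2 fold change of 0.56 ± 0.10 (SE, adjusted p = 0.0187, edgeR). It was also higher in FIDch against IS (0.63 ± 0.14, adjusted p = 0.08) and against FID (0.59 ± 0.14, adjusted p = 0.06). Stk11, the kinase that activates AMPK, was 832.7, 778.5, 764 and 769.3 in IS and 925.1, 944.7, 923.4 and 937.8 in ISch females, at 0.25 ± 0.046 (adjusted p = 0.0214). For ISch against IS, the male effect minus the female effect was -0.92 ± 0.15 for Tti2 (adjusted p = 0.00547) and -0.40 ± 0.085 for Stk11 (adjusted p = 0.0259), where 14.2% of all genes tested met the criterion. Tbc1d7, the third subunit of the TSC complex, was higher in ISch (0.34 ± 0.11) and FIDch (0.30 ± 0.11) than in IS females, each at the criterion with adjusted p of 0.149 and 0.255. In FIDch against FID females, Sesn1, a sestrin that restrains mTORC1, rose by 0.27 ± 0.057 (adjusted p = 0.0357) and Pdcd4, an inhibitor of eIF4A and S6 kinase target, by 0.24 ± 0.044 (adjusted p = 0.0234), while Castor1, the arginine sensor, was lower (-0.56 ± 0.22, adjusted p = 0.205) and Gsk3b, a kinase inhibited by Akt, too (-0.29 ± 0.11, adjusted p = 0.212). In FID against IS females, Prr5 was lower (-0.49 ± 0.092, adjusted p = 0.0578) and Castor1 higher (0.51 ± 0.17, adjusted p = 0.289). In FIDch against ISch females, Eif4ebp2 (-0.26 ± 0.097) and Kptn (-0.22 ± 0.091) were at the criterion with adjusted p of 0.58 and 0.603.

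Genes that are known to be induced by the same signals as Ddit4 were counted in 3 lists. Of 14 genes induced by glucocorticoid, 9 were lower and 0 higher at the criterion in FID against IS females, a share of 64.3%, beside 3.4% of all genes lower. An unadjusted p under 0.05 was reached by 10 of the 14 and an adjusted p under 0.05 by 0 with edgeR and by 5 with DESeq2. The 9 were Errfi1, Fkbp5, Nfkbia, Pdk4, Per1, Plin4, Sgk1, Sult1a1 and Tsc22d3, and the median of the list was -0.25 beside 0.00 for all genes. Sgk1, the serum and glucocorticoid regulated kinase, was 2356, 1693, 1814 and 2592 in IS and 1456, 1497, 1417 and 1446 in FID females, at -0.54 ± 0.11 (SE, adjusted p = 0.0726, edgeR). Pdk4, a brake on pyruvate oxidation, was 76.21, 57.45, 71.05 and 83.93 in IS and 48.71, 31.33, 40.82 and 36.69 in FID females, at -0.87 ± 0.19 (adjusted p = 0.0869). All FID females lay below all IS females for both genes, where 6.56% of all genes tested did not overlap. Like Ddit4, the list was chosen with earlier results of these data known. The count stayed between 6 and 10 lower and 0 higher in 15 alternative settings, with 6 when FID replicate 1 was left out and 9 under both other normalizations. All these settings use the same rats, so they cannot check a list chosen with results from them.

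**Figure D5:**
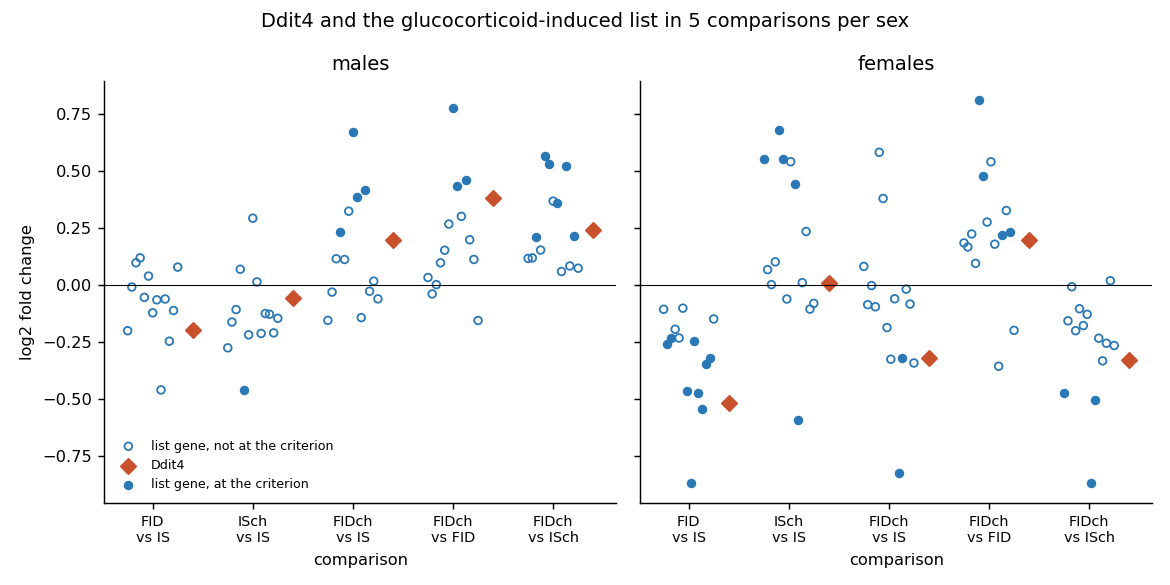
Log2 fold changes (y axis) of Ddit4 (diamonds) and of the 13 or 14 tested genes of the glucocorticoid-induced list (circles, filled at the criterion) in 5 comparisons (x axis), males left and females right. In female FID against IS the 14 list genes are all below 0 and 9 of them are at the criterion, with Ddit4 at -0.52.

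In FIDch males, some genes of the same list were higher. At the criterion were 3 of 13 against FID, 6 of 13 against ISch and 4 of 13 against IS, each higher and none lower, beside 5.74%, 3.09% and 2.91% of all genes higher. Sgk1 was 805.6, 955.8, 573.7 and 540.3 in FIDch and 461.6, 479.8, 452.9 and 659.3 in FID males, which overlap, at 0.46 ± 0.17 (SE, adjusted p = 0.191, edgeR). Per1, a clock gene, was 0.43 ± 0.085 in FIDch against FID, the 1 gene of the list with an adjusted p under 0.05 there (0.0347). Pdk4 was 0.78 ± 0.27 in FIDch against FID (adjusted p = 0.159) and 0.67 ± 0.28 against IS (adjusted p = 0.589). Against ISch, Mt2A, a metallothionein, was 0.57 ± 0.15 (adjusted p = 0.162) and Nfkbia, the inhibitor of NF-kappaB, 0.53 ± 0.16 (adjusted p = 0.202). The 2 FIDch rats with the highest Sgk1, replicates 1 and 2, were also the 2 with the highest Ddit4. In male FID it was the reverse, as the rat with the highest Sgk1, replicate 4 (659.3), had the lowest Ddit4 (287.3). Without the 3 libraries with names of another form, FIDch replicate 2 among them, the counts were 2 of 13 against FID, 1 of 13 against ISch and 1 of 13 against IS, and without FID replicate 4 the count against FID was 4 of 13. In male FID against IS 0 of 13 were at the criterion, with 0 at an unadjusted p under 0.05 by edgeR or DESeq2. In male ISch against IS it was 1 of 13, beside 3.54% of all genes lower: Mt2A, at -0.46 ± 0.15 (adjusted p = 0.384), and it was 0 of 13 without the libraries with names of another form.

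Female choline groups gave mixed counts for this list. In ISch against IS 4 of 14 were higher and 1 lower, beside 5.14% and 5.15% of all genes, Mt1 (0.68 ± 0.27, SE, adjusted p = 0.245, edgeR) and Plin4 (-0.59 ± 0.22, adjusted p = 0.203) having the largest changes. Per1 was 0.44 ± 0.085 and the 1 gene with an adjusted p under 0.05 by edgeR (0.024), where DESeq2 gave 3, and without ISch replicate 3 the counts were 4 higher and 4 lower. In FIDch against FID 4 were higher and 0 lower, beside 5.59% of all genes higher, with Mt1 at 0.81 ± 0.32 and Mt2A at 0.48 ± 0.17. In FIDch against IS 2 were lower beside 4.82% of all genes, and in FIDch against ISch 3 beside 2.75%. Among the latter, Pdk4 was at -0.87 ± 0.35 (adjusted p = 0.601, edgeR) and Per1 at -0.50 ± 0.10 (adjusted p = 0.44). The Pdk4 values overlapped, with 54.22 to 173.6 in ISch and 41.74 to 87.69 in FIDch, and ISch replicate 3 was the highest. Between the sexes, male minus female, 5 of 14 differed at the criterion in FID against IS and 5 in FIDch against ISch, all positive, beside 3.9% and 5.76% of all genes, and none of the 10 had an adjusted p under 0.05. In ISch against IS 4 differed, all negative, with Mt2A at -1.01 ± 0.28 (adjusted p = 0.0796) and Cdkn1a at -0.82 ± 0.27 (adjusted p = 0.142), beside 6.84% of all genes, and in FIDch against IS 4 differed, all positive, beside 6.2%. In FIDch against FID it was 0 of 14 by edgeR, with 0 at an unadjusted p under 0.05. The largest were Nfkbia (0.52 ± 0.19) and Sgk1 (0.50 ± 0.19) in FID against IS, and Pdk4 (1.27 ± 0.49, adjusted p = 0.33) and Per1 (0.88 ± 0.16, adjusted p = 0.112) in FIDch against ISch. The female part of the Pdk4 difference includes the same ISch replicate 3.

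The other inducer lists held 8 or 9 tested genes each. Of the 8 or 9 tested genes induced by hypoxia, between 0 and 2 were at the criterion in each of the 10 comparisons, and the same held for the 8 or 9 genes induced through ATF4. The highest counts, 2 of 9 or 22.2%, were those of both lists in female ISch and FIDch against IS, beside 10.3% and 8.98% of all genes, and of the ATF4 list in female FIDch against FID, beside 12.7%. In FIDch against IS females, Ddit3, the stress-response transcription factor CHOP, was 519.4, 555.9, 522.9 and 501.7 against 367.6, 390.1, 385.4 and 368.4 in IS. These did not overlap, as for 7.83% of all genes tested. Ddit3 had a log2 fold change of 0.48 ± 0.062 (SE, adjusted p = 0.00837, edgeR). Ldha, lactate dehydrogenase, was -0.21 ± 0.038 in ISch against IS females (adjusted p = 0.0203), and Slc2a1 and Vegfa had -0.21 ± 0.058 and -0.24 ± 0.063 in FIDch against IS females (adjusted p = 0.147 for each).

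Across the 16 libraries of each sex, the genes whose log2 CPM followed Ddit4 most closely were Bahd1, Plekhf1, Oaf, Tp53bp2 and Parp1 among 12630 genes with a symbol. Bahd1 had Pearson's r of 0.78 in males and 0.83 in females (Spearman's rho 0.68 and 0.86). The 5 genes had r of 0.69 to 0.78 in males and 0.68 to 0.89 in females, and 0.56 to 0.80 and 0.66 to 0.92 after the 2 libraries farthest from the median of Ddit4 were left out. For Eef2k they were Ppp6r1, Zfyve28, Tonsl, Caskin1 and Cabin1, with r of 0.66 to 0.83 in males and 0.65 to 0.72 in females, and 0.50 to 0.79 and 0.28 to 0.74 without those 2 libraries, Cabin1 in females being the lowest. These genes were ranked for their likeness and are described without a test; the libraries of a sex share a batch and differ in depth. Among the members, Tsc2 stood nearest to Eef2k, at rank 81, with r of 0.87 in males and 0.48 in females, and 0.76 and 0.62 within groups. Eif4ebp1 was nearest to Ddit4, at rank 1325, with r of 0.20 and 0.44. Ddit4 and Eef2k themselves had r of 0.11 in males and -0.19 in females, and -0.45 and -0.18 within groups.

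Markers of other cells were read beside these results. In females, summed microglia markers (6 genes) were 213 to 223 CPM in IS, 207 to 226 in FID, 182 to 206 in ISch and 189 to 197 CPM in FIDch, and the choline groups lay below the others. Astrocyte markers (6 genes) were 3370 to 3710 CPM in IS and 3270 to 3490 in FID females, and endothelial markers (4 entries) 217 to 228 and 211 to 233 CPM. In males, oligodendrocyte markers (7 genes) were 6910 to 8330 CPM in FID and 7810 to 9210 in FIDch, and astrocyte markers 3250 to 3530 and 3050 to 3440 CPM. Blood markers (4 entries) ran from 85.5 to 307 CPM in females and 70.6 to 194 in males. Choroid plexus markers were higher in every FID male than in every male of the other groups, with or without FID replicate 4. FID replicate 4, which had the most of them, had the lowest Ddit4 (287.3) and the highest Eef2k (310.4), Rps6kb1 (371.9) and Sgk1 (659.3) of its group. The part of these markers in the differences above was not tested.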

How the data were processed

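Hippocampal RNA of 32 rats was sequenced (50 bp paired ends). The authors deposited raw counts per gene for each sex, made with FastQC, Trimmomatic, HISAT2 and featureCounts on Rnor_6.0 per the labels. The strand setting is not given in the sources used here. Totals were 3515806 to 9517503 counts in males and 18439999 to 26616318 in females, so that counting error is smaller in females. Groups were compared within a sex by edgeR 4.0.16 (R 4.3.3, TMM, filterByExpr, quasi-likelihood test), each pair in its own fit, and p-values were adjusted over all genes by Benjamini-Hochberg. The criterion was an absolute log2 fold change over 0.2 with p under 0.05. Differences between effects were fitted as interactions. Nothing was found to pair rats across groups. Females are not described by litter, and the males' RNA data came from an earlier study, so rats of a group may share a litter. The p-values measure the spread between these samples, which may be technical, and take the samples as independent. Alternatives were other normalizations and filters, DESeq2 1.42.0, 1 fit of all groups, a replicate block and each library left out. Counts of the inducer lists under these settings, and the male difference of choline effects without 3 libraries, were added after seeing the data. The fits were tested on simulated data.

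The members and lists were chosen with earlier results of these data known. Named were the 9 members, and per comparison the 3 pathway genes at the criterion with the largest change, any with an adjusted p under 0.05, 2 genes of the inducer lists, Eef2 and Ddit4l, and the 5 genes most like Ddit4 and Eef2k. The genes listed by name in the glucocorticoid count, and Ldha, Slc2a1 and Vegfa, were named after their values were seen. Promoters came from RefSeq (GRCr8), which held 7 of the 9 members. A gene that the rule names is counted in its list and not reported here by name.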

Additional observations from a re-analysis of the deposited data

Results flagged for a closer look

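In 12 of 203 groups of 4 rats, 1 rat stood apart from the other 3 by Dixon's criterion, and chance gives about 1 in 20 groups. Among the members these were Rptor in female FIDch replicate 4 (1754 normalized counts, the others 2056 to 2106), Tsc1 in male FID replicate 2 (406.7, the others 473.7 to 485.3), Mtor in the same rat (999.9, the others 1172 to 1194) and Rps6kb1 in male IS replicate 3 (338.4, the others 282 to 289.3). Female FIDch replicate 1 stood apart for Tbc1d7 (156.3), Pdcd4 (2617) and Kptn (515), and female FID replicate 4 for Tsc22d3 (1063). In males, ISch replicate 3 stood apart for Ddit4l (42.14), FID replicate 4 for Sgk1 (659.3) and for Rps6 (9.61, an uncertain entry of few counts, as its gene has near-identical copies), and FID replicate 2 for Vegfa (549.5).

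Of 49 differences between sexes or iron backgrounds in the 7 tested members, 5 met the criterion without adjustment, beside 7.33% to 17.7% of all genes per difference, and 1 had an adjusted p under 0.05 (edgeR). These 5 and 2 pathway genes with an adjusted p under 0.05 follow. The choline effect in FID minus that in IS was -0.21 for Rptor in females (adjusted p = 0.423) and 0.27 for Tsc2 in males (adjusted p = 0.195). Male minus female, ISch against IS differed by -0.68 for Eif4ebp1 (adjusted p = 0.186), -0.92 for Tti2 (adjusted p = 0.00547) and -0.40 for Stk11 (adjusted p = 0.0259). FIDch against FID differed by 0.40 for Tsc2 (adjusted p = 0.033) and -0.31 for Rps6kb1 (adjusted p = 0.129). Sex and sequencing batch cannot be told apart in these differences.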

How the results depend on the processing

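Small fold changes of Ddit4 and Eef2k changed sign between settings in some comparisons. Ddit4 was -0.17 to 0.01 in male and -0.06 to 0.09 in female ISch against IS. Eef2k was -0.01 to 0.14 in male FIDch against IS and -0.06 to 0.05 in female FID against IS. The log2 fold change of Ddit4 was -0.57 to -0.47 in female FID against IS, and that of Eef2k -0.34 to -0.19 in male FID against IS, over all settings run. The count of pathway genes at the criterion moved in male FID against IS, where 2 became 6 with all genes of at least 1 count, 8 with 4 groups in one fit and 5 with the replicate block, and 1 to 7 with a library left out. In male FIDch against IS, 1 became 2 with at least 1 count, 2 with the replicate block and 2 without the libraries with names of another form, and 1 to 4 with a library left out. In male FIDch against ISch, 6 became 10 without those libraries, and in female FIDch against ISch 4 became 2 by library size alone and 1 to 6 with a library left out, 2 without FIDch replicate 4. With a library left out the count was 3 to 16 in male ISch against IS (3 without IS replicate 1, 16 without IS replicate 3) and 3 to 13 in female FIDch against FID. At an adjusted p under 0.05 the counts were 0, 0, 0, 2 and 0 in males (FID, ISch and FIDch against IS, FIDch against FID and against ISch) and 0, 2, 1, 2 and 0 in females by edgeR, and 0, 0, 0, 3 and 2 and 4, 2, 3, 3 and 0 by DESeq2. The cause was not tested. The difference between sexes in Tsc2 stayed at 0.40 with the replicate block, with an adjusted p of 0.053. Same-numbered rats shared only a number: their deviations correlated at -0.13 to 0.15 in females and -0.15 to 0.22 in males over 24 pairs each. The shallower male libraries limit Eif4ebp1, Ddit4l and Pdk4.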
